A study of Rattus norvegicus with 9 samples.

Results

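The let-7 family was followed across normal, isograft and allograft rat corneas through its 8 guide-strand miRNAs, let-7a-5p to let-7i-5p. The members were the rows of the deposited small RNA table named rno-let-7a-5p, rno-let-7b-5p and so on through d, e, f, g and i, 8 of 765 listed miRNAs, and all 8 passed the filter on low values that left 281 miRNAs to test (RPM, the reads of a miRNA scaled to a common library size, of at least 5 in at least 3 libraries). Normal, isografted and allografted corneas gave 3 libraries each, all labelled as from Wistar rats of 6 weeks. No genotype, drug, donor strain or time after surgery is given in the labels, and whether the libraries of a group are separate animals is not stated, so a p-value here reflects only how much these samples varied, and that variation may be technical. By the meaning of the words, isografts have a genetically matched donor and allografts one that differs; the labels give the Wistar strain for all groups and do not state the match itself. Each library carries a title number, 12, 34 or 56, used below with its group.

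Background on the family is as follows. let-7 miRNAs are made from several hairpin genes, bind targets through a shared seed at bases 2 to 8, and accumulate as cells leave the dividing, undifferentiated state. The RNA-binding proteins LIN28A and LIN28B block the maturation of most of the precursors in early cells, and growth and cell cycle genes such as Hmga2, Myc and Ras genes are known targets. Because the mature members differ at few positions outside the seed, sequencing has to separate them by single bases. In differentiated tissues the family is usually among the abundant miRNAs.

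The mature sequences show what separates the members, with the seed in capitals (RefSeq, build GRCr8, 5′ to 3′; all 8 members matched, and miR-98-5p is added because it has the same seed). let-7i-5p is encoded on the minus strand and the others on the plus strand.
rno-let-7a-5p: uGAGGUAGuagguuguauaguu
rno-let-7b-5p: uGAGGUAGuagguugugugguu
rno-let-7c-5p: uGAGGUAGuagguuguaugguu
rno-let-7d-5p: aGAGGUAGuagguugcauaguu
rno-let-7e-5p: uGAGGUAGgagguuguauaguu
rno-let-7f-5p: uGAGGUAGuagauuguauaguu
rno-let-7g-5p: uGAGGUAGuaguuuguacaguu
rno-let-7i-5p: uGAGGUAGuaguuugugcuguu
rno-miR-98-5p: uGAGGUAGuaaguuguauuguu

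All 9 share the seed GAGGUAG and are 22 bases long. Whether members of differing sequence were captured equally well in the libraries was not tested, so the order of their levels is an order of RPM only. Counted from base 1 at the 5′ end and against let-7a-5p, let-7c-5p differs by A19G, let-7e-5p by U9G and let-7f-5p by G12A. let-7b-5p differs from let-7a-5p by A17G and A19G, let-7d-5p by U1A and U16C, and let-7g-5p by G12U and U18C. let-7i-5p is the most distant from let-7a-5p, with G12U, A17G, U18C and A19U. Of the 28 pairs of members 4 differ at 1 position: let-7a-5p with let-7c-5p, let-7e-5p and let-7f-5p, and let-7b-5p with let-7c-5p. How the authors assigned reads with a mismatch is not given in the sources used here, so the split between such pairs is uncertain. Among miRNAs averaging at least 5 RPM, 1 case of shared assignment was seen: let-7a-1-3p and let-7c-2-3p, passenger arms of identical sequence, have identical values in all 9 libraries.

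Whole libraries set the frame for these values. The RPM denominator of each library was 11001459 to 12153889 reads, and the listed miRNAs held from 26.4% of them in allograft 34 to 65.6% in normal 34. The scarcest member reading was 2017 reads, let-7e-5p in allograft 34, where counting error is 2.23%. Isograft 12 stood apart from the other isografts in miR-205, at 5763 RPM against 14532 and 13178. The other corneal epithelial markers listed were also lowest there among isografts, except miR-184, at 134975 RPM against 143730 and 131748. Allograft 34 stood apart from the other allografts, with the red cell miRNA miR-486 at 946 RPM against 15.3 and 13.8. The defining corneal epithelial miRNAs miR-184 and miR-205 were present in every library, and the summed level of 8 epithelial marker miRNAs ran from 271148 to 420587 RPM among normal corneas, 159213 to 193990 among isografts and 37254 to 90969 among allografts. The summed level of 6 leukocyte markers went the other way, 58.1 to 70.3 RPM, 171 to 345 and 2350 to 4096. In bulk tissue, fewer cells of a type and less RNA per cell cannot be told apart.

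Together the 8 members took a few percent of the reads, and their sum was highest in isografts. The summed let-7 level was 49653, 59595 and 56952 RPM in normal 12, 34 and 56, which is 4.97%, 5.96% and 5.70% of the reads (95% exact binomial interval of the first 4.95 to 4.98; such intervals cover counting error only). It was 62390, 76203 and 60525 RPM in isografts 12, 34 and 56 and 47386, 36723 and 55760 RPM in allografts 12, 34 and 56. Every isograft lay above every normal and every allograft library, while normal corneas and allografts overlapped. The mean was 55400 RPM ± 5150 for normal corneas, 66373 ± 8564 for isografts and 46623 ± 9541 for allografts (SD, n = 3; a sum over chosen members is described and not tested). On the log2 scale the ratio of group means was 0.26 for isografts and -0.25 for allografts against normal corneas, and -0.51 for allografts against isografts.

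The direction of the family sum in allografts depends on what it is divided by. As a share of the listed miRNAs only, summed let-7 averaged 9.71% ± 0.832 for normal corneas, 14.4% ± 2.31 for isografts and 13.3% ± 1.09 for allografts, so on that scale allografts lay above normal corneas by 0.45 (log2). With miR-184, the dominant corneal epithelial miRNA, left out of the divisor, the share ran from 18.9% to 19.7% among normal corneas, 17.0% to 26.7% among isografts and 13.6% to 16.1% among allografts. Single members are therefore given first in the authors' RPM and then as ratios to each other, which a scaling of whole libraries leaves as they are.

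In normal corneas the members spanned a wide range of levels. let-7f-5p at 15800 RPM ± 1264 and let-7i-5p at 15482 ± 1601 led and overlapped, followed by let-7g-5p at 8843 ± 762 and let-7c-5p at 7939 ± 880, which also overlapped. let-7a-5p stood at 4230 ± 423 and let-7b-5p at 2220 ± 259, each apart from its neighbours in the order. let-7d-5p at 477 ± 35.4 and let-7e-5p at 409 ± 64.5 were the scarcest and overlapped (SD, n = 3 each). let-7i-5p ranked between the fourth and the seventh most abundant of the 765 miRNAs in every library, whereas let-7e-5p ranked from 55 to 80.

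In the grafts the order beyond the spread differed from that in normal corneas for let-7g-5p and let-7c-5p in allografts. In isografts let-7i-5p at 19562 RPM ± 1968 and let-7f-5p at 18461 ± 2786 overlapped, and so did let-7c-5p at 9910 ± 1551 and let-7g-5p at 9729 ± 1358 (SD, n = 3). In allografts let-7i-5p at 14144 ± 2330 and let-7f-5p at 13349 ± 2301 still overlapped, but let-7g-5p at 9955 ± 1825 lay in every library above let-7c-5p, whose highest allograft value was 6014 RPM. Of the members that did not pass any comparison, let-7a-5p was at 3748, 4541 and 4401 RPM in normal 12, 34 and 56, 4072, 6108 and 4263 in isografts and 2814, 2330 and 4205 in allografts. Allograft 56 thus lay within the range of the normal corneas. let-7d-5p, scarce throughout, was at 439, 482 and 510 RPM, then 389, 800 and 585 in isografts and 385, 336 and 591 in allografts, with all groups overlapping. let-7f-5p ran from 14548 to 17076 RPM among normal corneas, 15649 to 21221 among isografts and 10812 to 15303 among allografts.

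**Figure D1:**
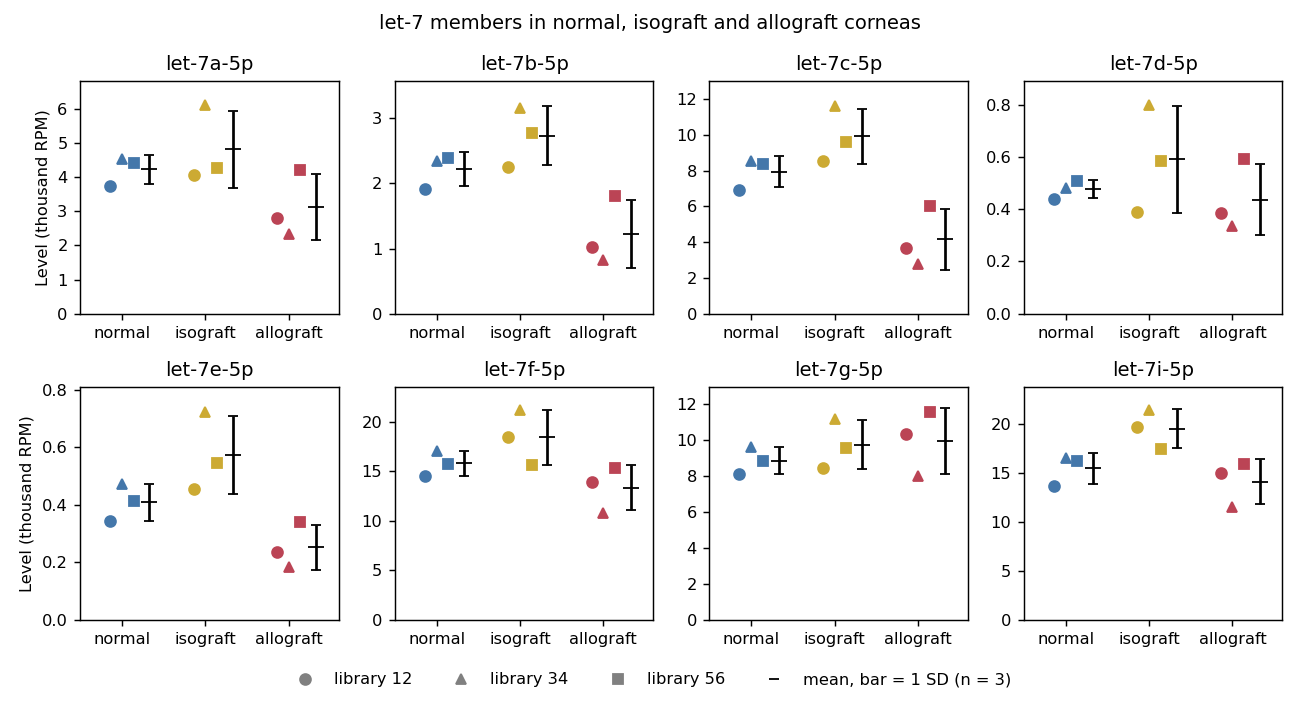
Level of each let-7 member (RPM on a linear axis from 0, in the units printed on it) in the 9 libraries; symbols mark the number in the library title and bars give the mean and 1 SD of 3 libraries. The allograft points of let-7b-5p, let-7c-5p and let-7e-5p lie below all normal and isograft points, while those of let-7g-5p run from below the lowest to above the highest of them.

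In allografts against normal corneas, the comparison of a graft from a differing donor with untouched tissue, let-7b-5p and let-7c-5p fell and the other 6 members did not pass the test. rno-let-7c-5p, a member that 2 hairpin genes encode, was at 6929, 8544 and 8344 RPM in normal 12, 34 and 56 and at 3675, 2754 and 6014 RPM in allografts 12, 34 and 56. All 3 allografts lay below all normal corneas, with allograft 56 closest to them. The log2 fold change was -1.01 (SE 0.33, limma on log2(RPM + 1), adjusted p = 0.0137). rno-let-7b-5p, whose gene lies next to 1 of the let-7c genes, was at 1921, 2347 and 2391 RPM in normal corneas and at 1029, 826 and 1808 RPM in allografts, again without overlap and with allograft 56 the highest of its group. The change was -0.94 (log2, SE 0.35, adjusted p = 0.0265).

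rno-let-7e-5p, which lies with miR-99b and miR-125a at 1 locus, was at 343, 472 and 413 RPM in normal corneas and at 235, 183 and 339 RPM in allografts. The groups did not overlap, by a margin of a few RPM between normal 12 and allograft 56, and the difference of -0.73 (SE 0.36, adjusted p = 0.0946) did not pass. let-7a-5p at -0.48 (SE 0.33, adjusted p = 0.245) overlapped between the groups, as did let-7f-5p at -0.26 (SE 0.30), let-7d-5p at -0.17 (SE 0.36) and let-7i-5p at -0.14 (SE 0.30), with adjusted p from 0.512 to 0.727. rno-let-7g-5p was the only member with a positive value, 0.16 (SE 0.31, adjusted p = 0.690), and was at 10335, 7971 and 11560 RPM in allografts against 8086, 9609 and 8834 RPM in normal corneas.

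These 2 members lower of 8 stand beside 47.3% of the 281 miRNAs tested that were called, 24.2% lower and 23.1% higher. The share lower is near that of the members, so the count of calls is no result about the family. The members' median log2 fold change was -0.37 and that of all miRNAs tested -0.14, and 3 of 8 members had no overlap between the groups against 60.1% of all. Both calls were lost without normal 34, without normal 56, without allograft 12 or without allograft 34, when 0 members were called and let-7c-5p had an adjusted p of 0.0582, 0.0667, 0.0506 and 0.0663. The log2 fold changes then were -0.95, -0.97, -0.96 and -0.75 for let-7c-5p and -0.89, -0.88, -0.85 and -0.70 for let-7b-5p. let-7e-5p was called too without isograft 12 (adjusted p = 0.0330), without allograft 56, by edgeR and DESeq2, and with scaling by median of ratios or without miR-184. With values scaled to the listed total, which moves the median of all miRNAs from -0.14 to 0.54, neither let-7b-5p at -0.22 nor let-7c-5p at -0.29 passed and let-7d-5p, let-7f-5p, let-7g-5p and let-7i-5p were called higher. On that scale 186 miRNAs were called and 44 of them were lower, against 133 and 68 in RPM.

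Between allografts and isografts, grafts that differ by name in the match of the donor, 3 members were lower in allografts and the others did not pass. let-7c-5p was at 8530, 11588 and 9611 RPM in isografts 12, 34 and 56, so that the lowest isograft lay above the highest allograft (6014 RPM). The difference was -1.32 (SE 0.33, adjusted p = 0.00336). let-7b-5p was at 2256, 3157 and 2778 RPM in isografts and lower in allografts by a log2 difference of -1.23 (SE 0.35, adjusted p = 0.00829). let-7e-5p was at 454, 722 and 546 RPM in isografts, above all allografts, with a difference of -1.20 (SE 0.36, adjusted p = 0.0121).

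Of the remaining members, let-7i-5p at -0.48 (SE 0.30) and let-7f-5p at -0.47 (SE 0.30) had no overlap between allografts and isografts but did not pass (adjusted p = 0.224 and adjusted p = 0.232). let-7a-5p had a value of -0.65 (SE 0.33, adjusted p = 0.129) and let-7d-5p of -0.42 (SE 0.36, adjusted p = 0.386). let-7g-5p, at 8456, 11159 and 9573 RPM in isografts, differed from allografts by 0.03 (SE 0.31, adjusted p = 0.966). Over all 281 miRNAs 34.5% were called, 21.0% lower in allografts than in isografts, and 38.8% had no overlap, where 5 of 8 members had none. Medians were -0.56 for the members and -0.29 for all miRNAs tested. Without allograft 34 only let-7c-5p was called, and without isograft 34 or allograft 12 let-7b-5p and let-7c-5p, while scaling to the sum without miR-184 added let-7a-5p and let-7d-5p. edgeR and DESeq2 added let-7a-5p (adjusted p = 0.0358 and adjusted p = 0.0349). With values scaled to the listed total let-7g-5p was called higher in allografts than in isografts (0.44, adjusted p = 0.0254).

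No member was called in isografts against normal corneas, the comparison for transplantation with a matched donor, although all 8 had positive values. They ran from 0.13 (SE 0.31) for let-7g-5p to 0.47 (SE 0.36) for let-7e-5p, with adjusted p from 0.456 to 0.847 (limma). At an unadjusted p under 0.05 the count was also 0, and edgeR and DESeq2 on reads recovered from the RPM called 0. let-7i-5p alone had no overlap, at 19720, 21447 and 17520 RPM in isografts against 13639, 16524 and 16284 RPM in normal corneas. Of all miRNAs tested 21.4% were called, 4.63% lower and 16.7% higher, and 33.5% did not overlap. The median of the members was 0.27 and that of all miRNAs 0.05. Scaled to the listed total, all 8 members were called higher, with a median of 0.58 against 0.33 for all miRNAs.

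**Figure D2:**
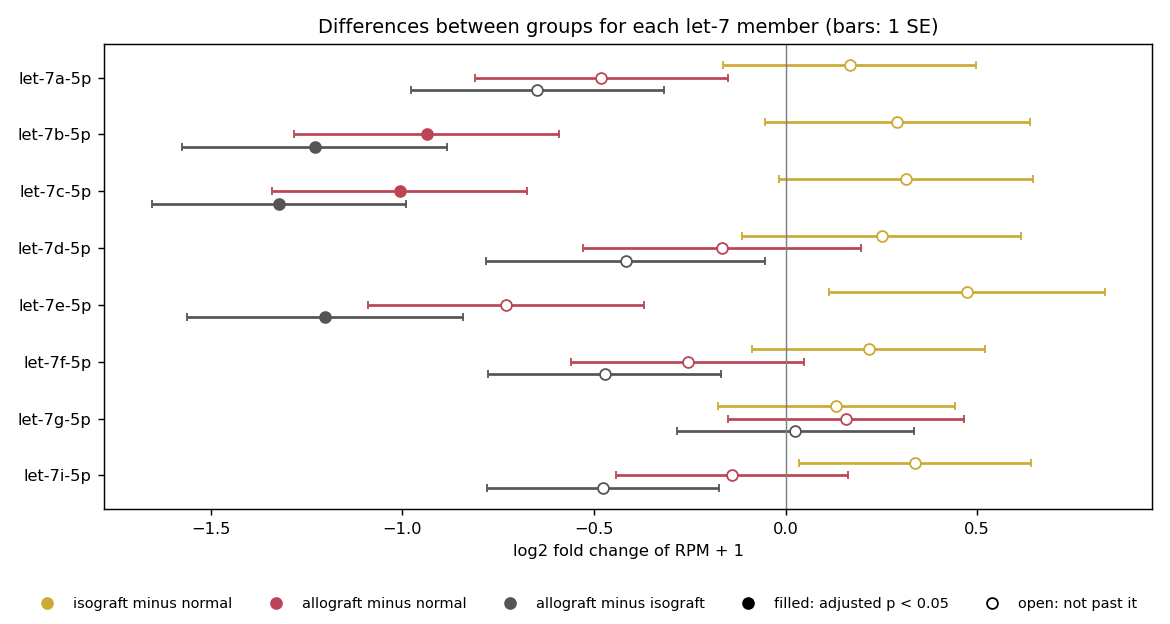
Log2 fold change of RPM + 1 for each member in the 3 comparisons, with bars of 1 SE from the model fitted to all 281 miRNAs; filled points passed an adjusted p of 0.05. let-7b-5p and let-7c-5p are filled for both comparisons of allografts and let-7e-5p only for allografts minus isografts, and no isograft minus normal point is filled.

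The comparisons share libraries, so their values for a member are not independent: allografts enter 2 of the 3, as do isografts and normal corneas. Side by side, let-7c-5p had 0.31 for isografts minus normal and -1.01 for allografts minus normal, let-7b-5p 0.29 and -0.94, and let-7e-5p 0.47 and -0.73. let-7g-5p had 0.13 and 0.16. The difference between such values is the comparison of allografts with isografts given above.

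Ratios between members within a library compare them without any divisor. The share of let-7c-5p in summed let-7 averaged 14.3% ± 0.349 in normal corneas and was 13.7%, 15.2% and 15.9% in isografts 12, 34 and 56. In allografts it was 7.76%, 7.50% and 10.8%, below every other library. let-7b-5p made up 3.87%, 3.94% and 4.20% in normal corneas, 3.62%, 4.14% and 4.59% in isografts, but 2.17%, 2.25% and 3.24% in allografts. The mean share of let-7e-5p was 0.736% ± 0.0515, 0.859% ± 0.116 and 0.534% ± 0.0637 in the same order (SD, n = 3). The share of let-7g-5p was 16.3%, 16.1% and 15.5% in normal corneas, 13.6%, 14.6% and 15.8% in isografts, but 21.8%, 21.7% and 20.7% in allografts. Shares sum to 100, so a lower share of some members raises that of others by construction; in RPM let-7g-5p did not pass, and its level in allograft 34 was the lowest of all 9 libraries. let-7f-5p held 28.6% ± 0.804, 27.8% ± 1.91 and 28.8% ± 1.14 and let-7i-5p 27.9% ± 0.589, 29.6% ± 1.81 and 30.5% ± 1.68.

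**Figure D3:**
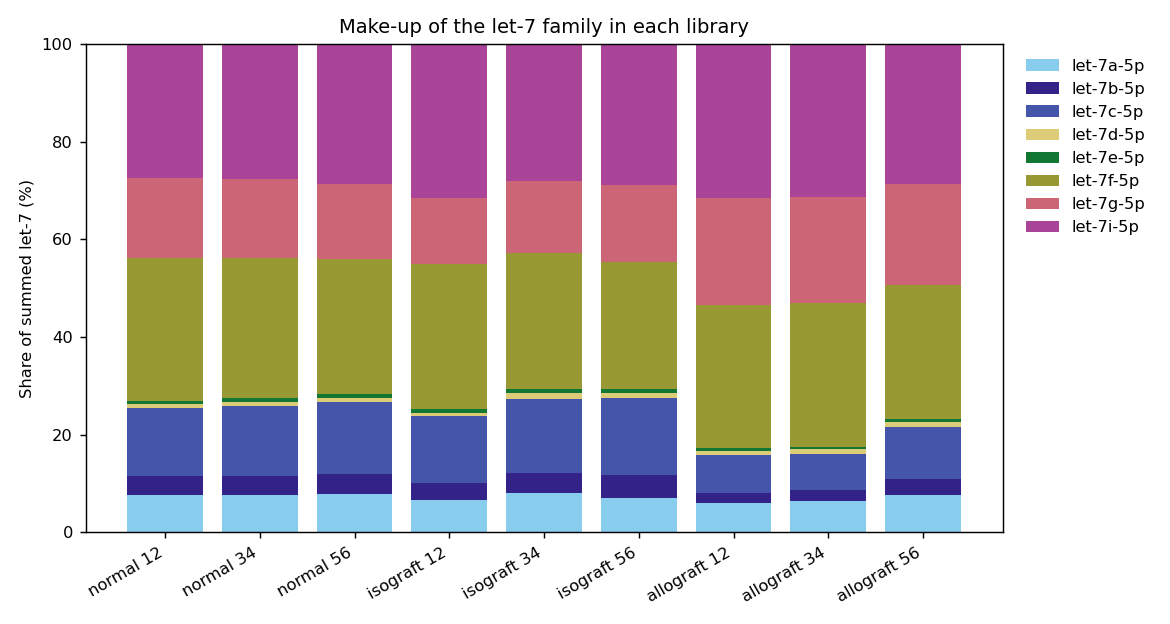
Share of each member in the summed let-7 level of each library, in percent, stacked to 100. The bands of let-7b-5p and let-7c-5p are narrower and that of let-7g-5p wider in the 3 allografts than in the 6 other libraries.

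Each of the 28 pairs of members was tested for a difference of its log2 ratio between the 3 groups (exact permutation test over all assignments of the 9 libraries to 3 groups of 3, Benjamini-Hochberg adjustment over the 28 pairs, smallest possible p 0.00357). The ratio differed in 9 pairs, 32.1% of the 28; over all 39340 pairs of the 281 miRNAs, 51.3% had a p as small as those 9 in the same test, so the count is no result about the family. The ratio of let-7c-5p to let-7g-5p was -0.22, -0.17 and -0.08 (log2) in normal 12, 34 and 56, 0.01, 0.05 and 0.01 in isografts, and -1.49, -1.53 and -0.94 in allografts. Both miRNAs were thus near equal in normal corneas and isografts, and let-7c-5p was the scarcer in allografts (exact permutation p = 0.00357, adjusted p = 0.025, n = 3 per group). let-7b-5p to let-7g-5p was at -2.07, -2.03 and -1.88 in normal corneas, -1.84 ± 0.06 for isografts and -3.09 ± 0.36 for allografts (adjusted p = 0.0333, exact permutation test).

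The same test passed for let-7e-5p against 4 members. Its ratio to let-7g-5p was -4.44 ± 0.11 for normal corneas, -4.10 ± 0.14 for isografts and -5.33 ± 0.21 for allografts (adjusted p = 0.025, exact permutation test). Its pairs with let-7a-5p, let-7d-5p and let-7f-5p had adjusted p of 0.025, 0.0375 and 0.0444, each with let-7e-5p relatively lowest in allografts. let-7a-5p passed against let-7c-5p, with log2 ratios of -0.91 ± 0.02, -1.05 ± 0.12 and -0.38 ± 0.14 in normal corneas, isografts and allografts, and against let-7b-5p (adjusted p = 0.025 and adjusted p = 0.0375, exact permutation test). The ninth pair was let-7g-5p to let-7i-5p, at -0.81 ± 0.07, -1.01 ± 0.18 and -0.51 ± 0.04 (adjusted p = 0.0333, exact permutation test). Over all 28 pairs, allografts did not overlap with normal corneas in 22 (78.6%, against 76.4% of all pairs of miRNAs) or with isografts in 18 (64.3% against 63.2%), and isografts did not overlap with normal corneas in 4 (14.3% against 56.8%).

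let-7b-5p and let-7c-5p, which differ at 1 position and have neighbouring genes, had a ratio that did not pass. Its mean was -1.84 for normal corneas, -1.86 for isografts and -1.77 for allografts (exact permutation p = 0.175, adjusted p = 0.204). let-7f-5p to let-7i-5p, the leading members, had mean log2 ratios of 0.03, -0.09 and -0.08 (adjusted p = 0.11, exact permutation test). The pair let-7a-5p and let-7f-5p, also separated by 1 base, had an adjusted p of 0.45 in the exact permutation test. The other pairs of let-7c-5p and let-7b-5p with let-7d-5p, let-7f-5p and let-7i-5p moved by -0.68 to -0.87 from normal corneas to allografts but had adjusted p from 0.0533 to 0.0889. The number of pairs that passed was 4 without normal 12, 14 without isograft 12 and 16 without allograft 56; pairs share members and are not independent of each other.

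**Figure D4:**
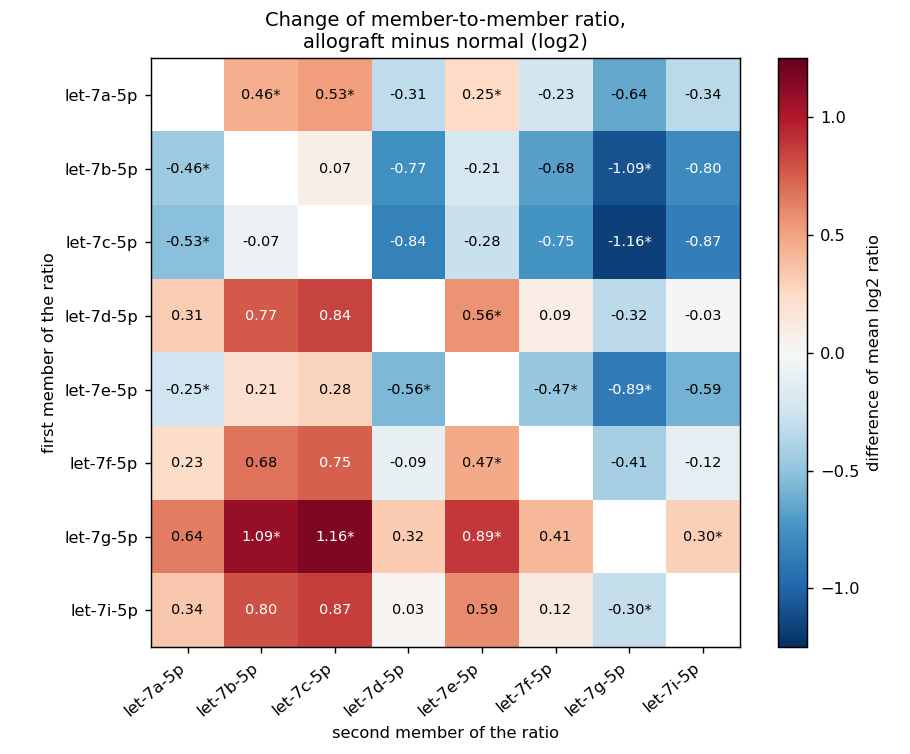
Difference of the mean log2 ratio of the row member to the column member, allograft minus normal, for all pairs; an asterisk marks an adjusted p under 0.05 in the exact permutation test over the 3 groups. The largest values are those of let-7g-5p against let-7c-5p (1.16), let-7b-5p (1.09) and let-7e-5p (0.89).

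Marker miRNAs of several cell types also differed between the groups. Allograft 56 had the highest let-7c-5p share of its group (10.8%). It also had the highest summed level of both epithelial markers (90969 RPM) and leukocyte markers (4096 RPM) among allografts. The listed miRNAs together also held more of its reads, 46.3% against 33.9% and 26.4% in allografts 12 and 34. In allografts against normal corneas 7 of the 8 epithelial markers were lower (24.2% of all miRNAs tested). All 6 leukocyte and 5 of 7 stromal markers were higher (23.1% of all). In isografts against normal corneas, where no let-7 member was called, 4 of the 8 epithelial markers were lower (4.63% of all). There 5 of 6 leukocyte and 6 of 7 stromal markers were higher (16.7% of all). The summed level of the stromal markers ran from 8192 to 10206 RPM among normal corneas, 17134 to 36103 among isografts and 11397 to 21573 among allografts. Both endothelial markers were higher in allografts and in isografts than in normal corneas, at summed levels of 346 to 857 RPM among normal corneas, 2095 to 6150 among isografts and 2955 to 4874 among allografts. None of the defining markers of these 4 lists was at 0 in any library. What part any of these cell types has in the let-7 values was not tested.

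The family is spread over 11 hairpin genes, and some miRNAs are specific to 1 hairpin or to its neighbours. In RefSeq (GRCr8) let-7b and let-7c-2 lie within 10 kb of each other, as do let-7a-1, let-7f-1 and let-7d, and let-7f-2 and miR-98, the latter pair within the span of Huwe1. let-7e lies with miR-99b and miR-125a within the span of Spaca6, let-7a-2 next to miR-100, and let-7c-1 next to miR-99a; let-7g lies within the spans of Wdr82 and Rpl29. As background, miR-125b-2 belongs to the transcript of let-7c-1 and miR-125b-1 to that of let-7a-2. A list of 28 rows with miR-98, the passenger (3p) arms and these partners had 17 that passed the filter. Of those, 6 were lower and 0 higher in allografts against normal corneas (24.2% and 23.1% of all miRNAs). In allografts against isografts 7 were lower (21.0% of all), and in isografts against normal corneas 1 was higher (16.7% of all). Both let-7c-1-3p and let-7e-3p are among the 6, and let-7c-1-3p also among the 7. No allograft value of either reached the 5 RPM of the filter, so these calls are not independent of it. The rows of let-7a-1-3p and let-7c-2-3p are identical and both count in the 17. The counts are therefore no result about the list.

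Of the miRNAs given only by the let-7c-1 transcript, miR-99a-5p and miR-125b-2-3p fell in allografts. Another, let-7c-1-3p, passed the filter only through normal and isograft libraries, with allograft values of 3.45, 3.00 and 4.18 RPM. Its entry into the test was therefore not independent of the comparison, and its low allograft level is not counted with theirs. let-7c-1-3p, the passenger strand that only this hairpin gives, was scarce, at 6.17, 8.54 and 9.72 RPM in normal 12, 34 and 56 against 3.54 RPM ± 0.596 in allografts. miR-99a-5p fell by 1.40 on the log2 scale (SE 0.33), from a mean of 11954 RPM ± 1654 to 4617 ± 1222, and miR-125b-2-3p fell by 1.14 (SE 0.37). miR-125b-5p, which the let-7c-1 and the let-7a-2 transcripts both give, fell by 1.32 (SE 0.37). With values scaled to the listed total the changes were smaller but still negative, -0.68 for miR-99a-5p, -0.60 for miR-125b-5p and -0.43 for miR-125b-2-3p, while let-7c-1-3p at -0.40 did not pass (adjusted p = 0.0594). let-7c-1-3p was also not called without normal 34, normal 56, allograft 12 or allograft 34, and miR-125b-2-3p not without normal 34 or allograft 34. In isografts against normal corneas miR-99a-5p, miR-125b-2-3p and let-7c-1-3p were not called. There miR-99a-5p was at -0.54 (SE 0.33), miR-125b-2-3p at 0.11 (SE 0.37) and let-7c-1-3p at 0.12 (SE 0.35).

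At the let-7e locus miR-125a-5p fell in allografts against normal corneas and the miR-99b strands did not pass. let-7e-3p passed the filter only through normal 34 and isografts 34 and 56, and all its allograft values lay under 5 RPM. Its low allograft level is therefore not independent of the filter and is not counted. miR-125a-5p was at 1185, 1317 and 1570 RPM in normal corneas and fell to 393, 328 and 665 RPM in allografts (log2 fold change -1.61, SE 0.37, limma adjusted p = 0.000692). let-7e-3p averaged 5.27 RPM ± 1.40 in normal corneas and 2.57 ± 1.12 in allografts. miR-99b-5p stood at 0.07 (SE 0.33) and miR-99b-3p at 0.01 (SE 0.38) in allografts against normal corneas, and at -0.03 and -0.08 when scaled without miR-184. In isografts miR-99b-5p was at 1994 RPM ± 202 against 973 ± 129 in normal corneas and so rose by 1.04 (SE 0.33, adjusted p = 0.0255), while miR-125a-5p was at -0.08 (SE 0.37). In allografts against isografts miR-99b-5p was lower without overlap, at -0.97 (SE 0.33, limma adjusted p = 0.0251), as was miR-125a-5p at -1.53 (adjusted p = 0.00233). miR-99b-3p, also without overlap, was at -0.85 there and did not pass (adjusted p = 0.0836). miR-125a-5p passed in all 23 other settings, but let-7e-3p in only 9 of 22, and miR-99b-5p in isografts was lost without any 1 of the normal libraries and without isograft 34 or 56. A test of the difference between these neighbours was not run.

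Of the strands that belong to 1 of the other loci alone, let-7b-5p was called in allografts against normal corneas. let-7b-3p had a value of -0.83 (SE 0.38, adjusted p = 0.0764), close to that of its guide strand. From the let-7a-2 locus miR-100-5p had -0.29 (SE 0.33), which turned to 0.43 when scaled to the listed total, and miR-125b-1-3p 0.60 (SE 0.39). Against isografts, however, miR-100-5p was lower in allografts without overlap, at -1.11 (SE 0.33, limma adjusted p = 0.0113). miR-125b-1-3p was at -0.45 in that comparison and did not pass (adjusted p = 0.386). Against normal corneas again, the remaining strands did not pass. let-7d-3p had 0.24 (SE 0.38), let-7f-1-3p 0.41 (SE 0.36) and let-7f-2-3p -0.24 (SE 0.42), the last turning to 0.41 on that scale. miR-98-5p, which reads the same seed, was at 97.6, 122 and 108 RPM in normal 12, 34 and 56 and at 127, 132 and 178 RPM in allografts, above all normal corneas but short of the threshold (0.40, SE 0.38, adjusted p = 0.393).

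**Figure D5:**
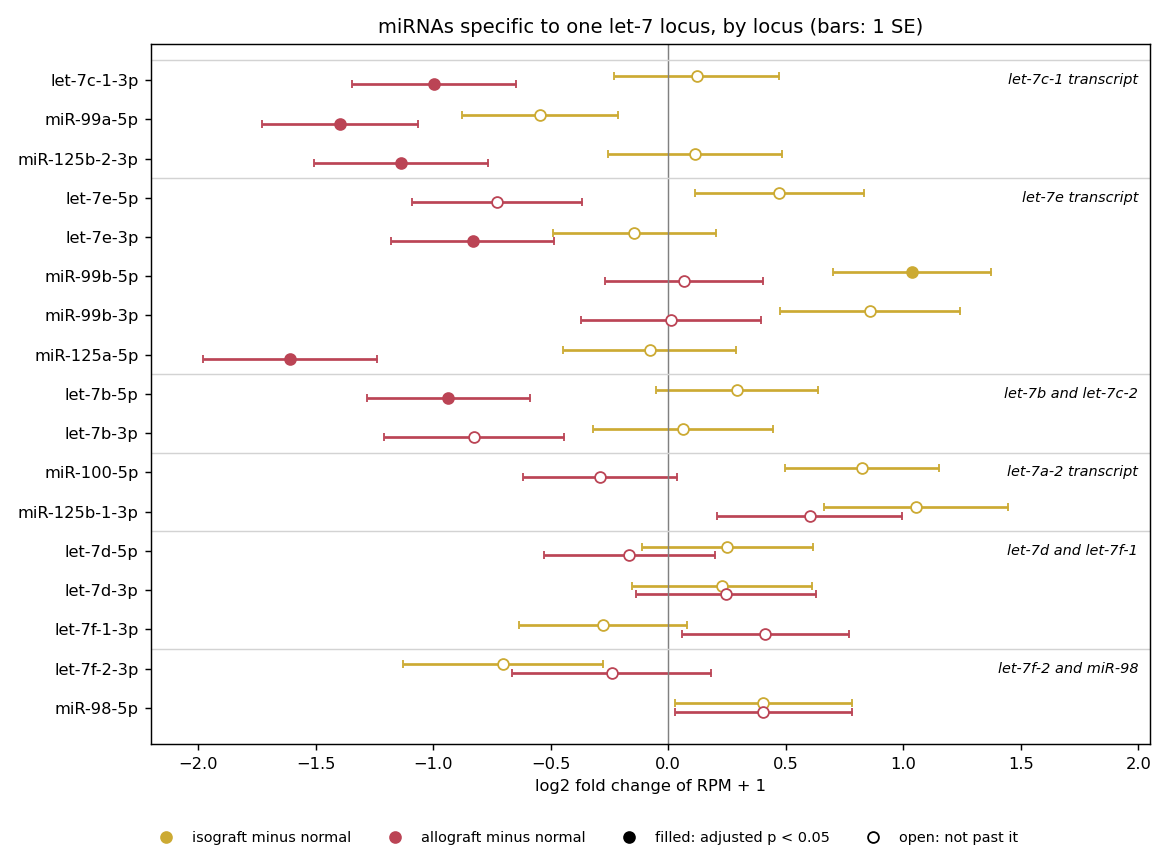
Log2 fold change of RPM + 1 against normal corneas for miRNAs specific to 1 let-7 locus, grouped by locus, with bars of 1 SE; filled points passed an adjusted p of 0.05. miR-99a-5p and miR-125b-2-3p of the let-7c-1 transcript are filled on the negative side for allografts. The points of the let-7d, let-7f-1, let-7f-2 and miR-98 loci are open. No allograft value of let-7c-1-3p or let-7e-3p reached the 5 RPM of the filter, so their filled points are not independent of it.

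Except at let-7d, passenger strands stood at a few percent or less of the guide strand of the same letter. Since let-7a-5p, let-7c-5p and let-7f-5p each come from 2 hairpin genes, their ratios do not give the share within 1 hairpin. let-7d-3p stood at 16.0%, 15.4% and 16.1% of let-7d-5p in normal 12, 34 and 56, at 15.8%, 13.3% and 18.2% in isografts and at 20.1%, 22.1% and 21.1% in allografts, the highest 3 of the 9 values. let-7b-3p held 0.589% ± 0.0625, 0.507% ± 0.0855 and 0.596% ± 0.0554 of let-7b-5p in the 3 groups in that order. The lower isograft mean came from isograft 12 at 0.408%. Isografts 34 and 56, at 0.550% and 0.563%, lay within the range of normal corneas. let-7c-1-3p stood at 0.102%, 0.0897% and 0.0908% of let-7c-5p, which let-7c-2 also gives, on average in the same order. Of the 11 let-7 passenger arms listed 8 passed the filter, and the 4 rows named miR-3596 were at 0 in all libraries.

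By the direction and size of their changes over the 9 libraries, members sorted into neighbours within and outside the family. Likeness was measured as the root mean square difference of centred log2(RPM + 1) values, which has a median of 0.29 between members and 0.77 between all miRNAs tested. let-7b-5p and let-7c-5p were each other's nearest miRNA at 0.06, and so were let-7f-5p and let-7i-5p at 0.07, while let-7e-5p was nearest to let-7b-5p at 0.14. The nearest to let-7g-5p was miR-148b-3p at 0.10, to let-7a-5p miR-328a-3p at 0.10, and to let-7d-5p miR-874-3p at 0.04, the last a miRNA of only 5.93 RPM on average. Outside the family and its partners the summed let-7 level was most like miR-328a-3p (0.17), miR-28-3p (0.18) and miR-423-5p (0.19). The measure is not scaled for amplitude, so profiles with small changes also come out close. All these profiles share the same libraries and divisors.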

How the data were processed

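The 9 small RNA libraries of cornea, made from 1 ug of total RNA with a TruSeq kit per the labels' protocols, gave 1 deposited table of RPM values for 765 mature miRNAs. The submitters' processing notes name bcl2fastq, BWA and rn6, with no versions; how reads were trimmed and ambiguous reads assigned is not stated there. All 9 columns matched a sample title, with 0 unmatched. RPM values moved in fixed steps, and 100% of values came out as whole reads within 0.1 read, which gave the denominators; 3 reads equal 0.247 to 0.273 RPM. Within groups, no libraries looked like repeat deposits (chi-square of reads over its degrees of freedom 70.5 to 810).

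The 281 miRNAs that reached 5 RPM in 3 or more libraries were analysed as log2(RPM + 1), which understates changes of low miRNAs, with limma 3.58.1 in R 4.3.3 (two-sided, trend, all 9 libraries, no covariate), with Benjamini-Hochberg adjustment over the 281 and a threshold of 0.05. Ratios between members were tested by exact permutation over the 3 groups; for 3 libraries against 3 such a test cannot go below 0.1, so it was not used for pairs of groups. The scripts were tested on simulated data. Alternatives covered the pseudocount, the filter, 3 scalings, the variance model, libraries left out, the title number as a block, and edgeR 4.0.16 and DESeq2 1.42.0 on recovered reads. All 8 members were named, with a list of the same-seed miRNA, the 3p arms and the cluster partners, and the nearest profiles. Members, lists and rules were chosen with earlier results of these data known. Lists for red blood cells and neurons were also read: their summed levels were 13.6 to 1067 and 26.1 to 56.6 RPM over all libraries, with miR-144-3p at 0 in 1 library.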

Additional observations from a re-analysis of the deposited data

How the results depend on the processing

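Of 552 values of single members under other settings, 501 kept their direction and side of the threshold, 14 lost and 22 gained a call, and 15 changed direction, 3 of which also gained a call; let-7c-5p in allografts against isografts passed in all 23. Scaling to the listed total called 8 members in isografts and 4 in allografts against normal corneas, 4 between grafts (let-7g-5p higher), and put the summed level at 0.57, 0.45 and -0.12 (isograft minus normal, allograft minus normal, allograft minus isograft). It turned the allograft minus normal values of let-7a-5p to 0.24, let-7d-5p to 0.55, let-7f-5p to 0.46 and let-7i-5p to 0.58. Scaling without miR-184 called 4 members in allografts against normal corneas and 5 against isografts, and turned let-7a-5p to -0.0022 and let-7g-5p to -0.037 in isografts. Without isograft 12 and allograft 34 together, let-7d-5p and let-7i-5p in allografts stood at 0.0025 and 0.0026, and 11 pairs passed. In edgeR let-7i-5p stood at 0.012. The causes were not tested. By a choice made after seeing the data, the 7 partner values called against normal corneas were put through the same settings. These 7 kept their direction, which for let-7c-1-3p and let-7e-3p is not independent of the filter. Of all 17 partners tested, 4 in allografts and 6 in isografts changed direction under at least 1 scaling. The share of all pairs of miRNAs was also added after seeing the data.

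With each library left out, members called stayed at 0 (isograft minus normal) and ranged from 0 to 3 (allograft minus normal) and 1 to 4 (allograft minus isograft), and pairs from 4 to 16. Single values ranged from -0.017 to 0.28 for let-7a-5p in isografts, from -0.40 to 0.0025 for let-7d-5p and -0.23 to 0.0026 for let-7i-5p in allografts, and from -0.091 to 0.18 for let-7g-5p between grafts. The title number as a replicate block called the same counts of members, 0, 2 and 3. The labels do not say what the numbers mean. Same-numbered libraries had correlations of deviations from -0.51 to 0.56, and not every library correlated best with its own number. With 3 libraries a group, such correlations cannot show whether a number marks a shared batch or source. Over all miRNAs the calls of isografts against normal corneas rose from 60 (47 higher) to 115 (66 higher) with scaling by median of ratios, 122 (107 higher) and 119 (64 higher) with the other scalings, and 114 in edgeR and 119 in DESeq2; those between grafts rose from 97 (38 higher) to 168 (80 higher), 86 higher with 55 lower, and 168 with these scalings, and to 163 in edgeR and 171 in DESeq2. Calls between grafts were 52 without allograft 34 and 147 without isograft 12, and those of allografts against normal corneas 133 in RPM and 193 in edgeR. With a filter of 50 RPM 30, 63 and 44 of 152 were called. Counting error is at most 2.23% for any member value; with 3 libraries a group, leaving 1 out can end a call.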
